A study of Mus musculus with 16 samples.

Results

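The comparison described here sets liver RNA of mice on a high-fat diet (HFD) against that of mice on chow when FGFR4 was knocked down (KD) in both. Its members were picked by label alone, as the libraries HFD/FGFR4 KD 1 to 4 and Chow/FGFR4 KD 1 to 4, and make up 8 of the 16 liver libraries of the study. Cyp7a1, which encodes the rate-limiting enzyme of bile acid synthesis, rose 6.61-fold on HFD, and Gpc1, a cell-surface heparan sulfate proteoglycan, rose 5.74-fold. Of 20 genes of cholesterol synthesis 15 rose and 0 fell, where 10.1% of all genes tested rose. Among genes of the molecular clock, Dbp and Per3 rose while Cry1 fell. Of 22 tested genes that are higher in male than in female liver 17 fell, where 10.1% of all genes tested fell. Drug-metabolizing enzymes went both ways. Of 22 P450 genes and regulators 5 rose and 7 fell, and of 33 conjugating enzymes 8 rose and 10 fell. Cyp3a11, Ces2a and Gstp1 were among the falls of such enzymes and Cyp2c38 among the rises.

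Every mouse was a C57BL6/J male, 6 weeks old when its diet began, and stayed on chow or HFD for 12 weeks. All 8 mice compared here also received the same agent, an siRNA against Fgfr4 joined to N-acetylgalactosamine (GalNAc), a sugar that hepatocytes take up, at 3 mg/kg under the skin every 2 weeks. The mice of the other 8 libraries (Chow 1 to 4 and HFD 1 to 4) were injected with saline, and no group received an siRNA without a target, so an effect of the siRNA itself cannot be told apart from an effect of low Fgfr4. The knockdown was thus present on both sides of the diet comparison, and saline mice enter below only as a second diet comparison that shares no library with the first. Each library was 1 mouse by the study's description, though the labels only number them. Mice were housed 4 to a cage, the sources used here do not say which mice shared one, and so cage and diet group cannot be told apart. The hour at which livers were taken is not given in them either.

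FGFR4 is a receptor tyrosine kinase of hepatocytes that, with its co-receptor β-klotho (Klb), receives FGF15, a hormone that the ileum releases when bile acids return from the gut. Its signal lowers Cyp7a1 and so bile acid synthesis, which is the main route by which the liver disposes of cholesterol. Cholesterol drawn into bile acids is replaced by uptake of lipoproteins and by synthesis, both driven by the transcription factor SREBP2. High-fat feeding is known to change hepatic fatty acid handling and to bring lipid into hepatocytes.

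Values are given in CPM, the counts of a gene relative to the library total, after TMM scaling, which centres the bulk of genes between libraries. Differences are log2 differences of HFD minus chow from limma-voom with their standard error (SE), and adjusted p is the Benjamini-Hochberg value over all 11324 genes tested. A gene was called when its p was under 0.05 and its adjusted p under 0.25, the study's own threshold. "Rose" and "fell" are written only of called genes. Because bulk liver was measured, fewer cells of a type and less RNA per cell cannot be told apart.

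The 8 libraries held between 3445949 and 5598175 counts each. The siRNA target Fgfr4 stood at 5.95, 6.17, 4.24 and 2.76 CPM in Chow/FGFR4 KD 1 to 4 and 2.82, 2.43, 5.31 and 4.4 CPM in HFD/FGFR4 KD 1 to 4, against 29.7 ± 4.57 CPM in saline mice on chow and 25.7 ± 4.25 CPM in saline mice on HFD (SD, n = 4). The diet groups overlapped and Fgfr4 did not pass the test between them (-0.37 ± 0.344 log2, adjusted p = 0.585). The labelled tissue was matched by its markers, since all 12 hepatocyte markers were detected and their sum lay between 92254 and 107932 CPM in the 8 libraries. Of 16 markers of pancreas and gut, 10 were at 0 in all of them. The 16 together summed to 62.3 to 109 CPM on chow and 54.1 to 74.8 CPM on HFD. The 9 adipocyte markers, of which Lep was at 0 in all, summed to 2096 to 3522 CPM on chow and 1782 to 2600 CPM on HFD. Which cells these counts came from was not tested.

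2 libraries stood apart from the rest of their groups. Each library was placed on the axis from the Chow mean (0) to the HFD mean (1) of the saline mice over the genes called there. The Chow/FGFR4 KD libraries lay between -0.0292 and 0.192, HFD/FGFR4 KD 2, 3 and 4 lay at 0.85, 0.788 and 0.846, and HFD/FGFR4 KD 1 lay at 0.302, nearer to chow than to its own group. In that library Gm42418, a transcript that overlaps ribosomal RNA, took 22.3% of counts, against 13.7% to 16.2% in the other 3 of its group and 14.8% to 20.6% in Chow/FGFR4 KD, and its part in the position was not tested. Chow/FGFR4 KD 4 differed in another way, with a summed level of 23 acute-phase genes of 60846 CPM against 28601 to 30269 CPM in the other Chow/FGFR4 KD libraries. Limma's library quality weights were the lowest of the 16 for these 2 libraries, 0.54 for Chow/FGFR4 KD 4 and 0.659 for HFD/FGFR4 KD 1.

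Across all expressed genes, 2293 genes (20.2%) were called between HFD and chow under FGFR4 KD, 1148 higher (10.1%) and 1145 lower (10.1%). These shares stand beside every list count below, and a list near them does not stand out from all genes. With the stricter limit of 0.05 on the adjusted p, 351 genes (3.1%) remained. In 1306 genes (11.5%) the HFD/FGFR4 KD and Chow/FGFR4 KD libraries did not overlap, with 671 of these higher and 635 lower on HFD. Without HFD/FGFR4 KD 1 the count was 2535 (22.4%), 1285 higher (11.3%) and 1250 lower (11%), and 641 (5.66%) had an adjusted p under 0.05. Of these calls 1976 were made in both fits, all in the same direction, while 317 were made only with the library and 559 only without it. The even split into higher and lower genes rested on the scaling. With library totals in place of TMM the median gene moved up by 0.149 log2, 2279 genes passed the test and the higher share was 82.8%, where TMM gave 50.1%. With upper-quartile scaling 61.4% were higher and the median moved by 0.0413, so directions of small differences are relative to the median gene. Other single libraries also moved the total, which was 1189 without HFD/FGFR4 KD 4, 1456 without HFD/FGFR4 KD 3, 1484 without HFD/FGFR4 KD 2 and 1490 without Chow/FGFR4 KD 4.

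**Figure D1:**
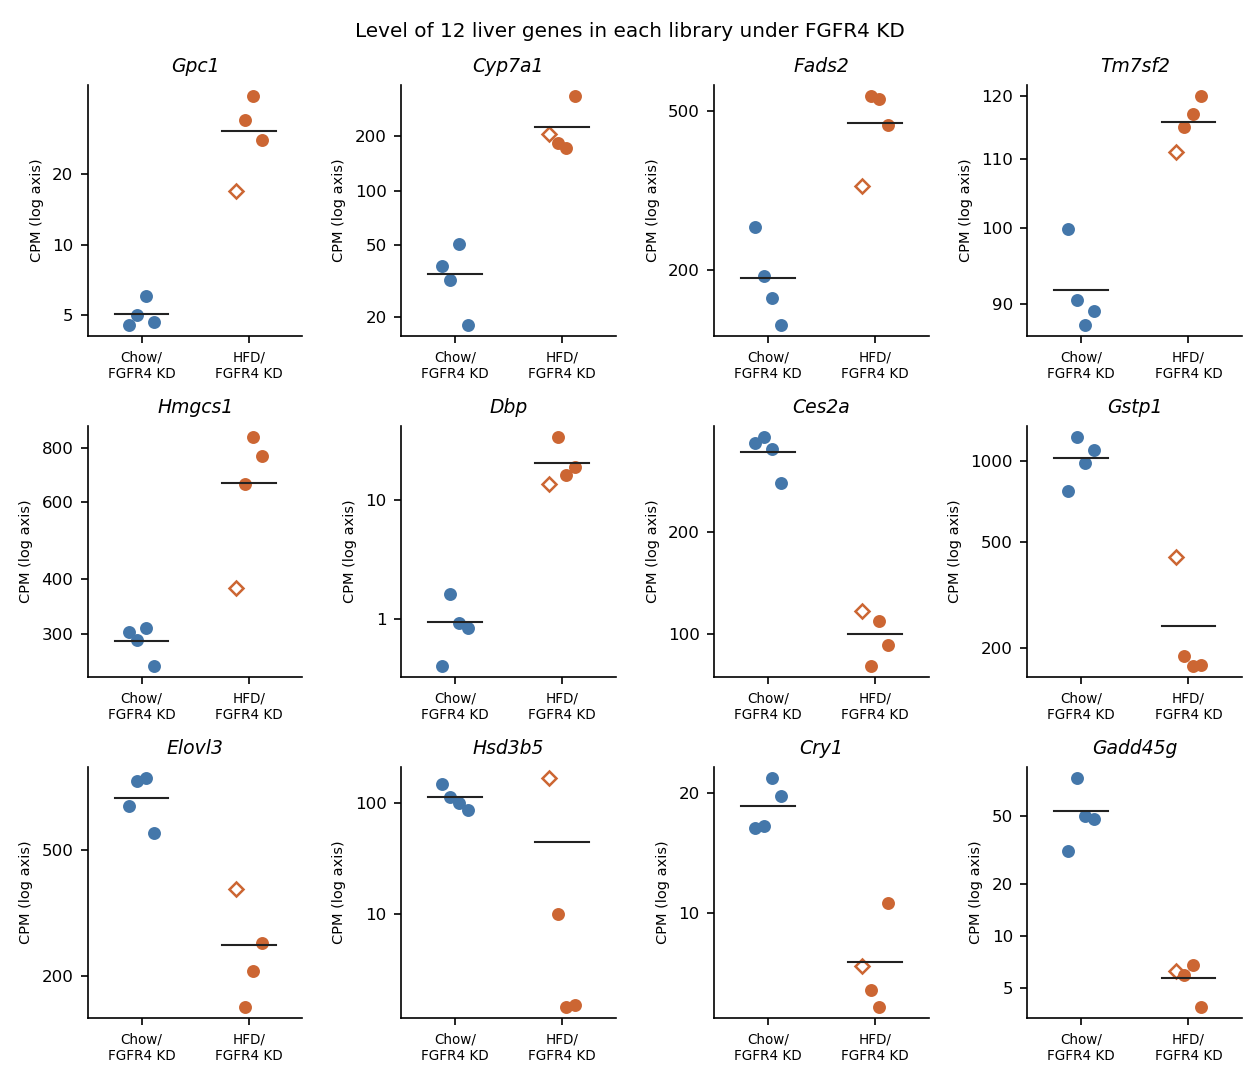
CPM (log axis, a range of its own in each panel) of 12 genes in the 4 Chow/FGFR4 KD libraries (blue) and the 4 HFD/FGFR4 KD libraries (orange); HFD/FGFR4 KD 1 is the open diamond and lines are arithmetic means. In 11 panels the groups do not overlap, and in Hsd3b5 the diamond, at 166 CPM, lies above every chow library while the other 3 HFD libraries lie at 10.1 CPM or lower.

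The strongest rises by p included both genes that mark this comparison. Gpc1 (chromosome 1, 92831645 to 92860779 on GRCm38) stood at 4.56, 5.03, 6.05 and 4.69 CPM in Chow/FGFR4 KD 1 to 4 and 16.9, 34.1, 43 and 28 CPM in HFD/FGFR4 KD 1 to 4. All 4 HFD libraries were above all 4 chow libraries, with HFD/FGFR4 KD 1 the lowest of them. The difference was 2.52 ± 0.341 log2 (adjusted p = 0.00097) and 2.78 without that library, and in saline mice Gpc1 rose by 3.10 (adjusted p = 0.000103). Of the 31-base words in Gpc1 transcripts 18.4% also occur in other genes.

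Cyp7a1 (chromosome 4, 6265612 to 6275633) stood at 38.3, 32, 50.6 and 18.2 CPM in Chow/FGFR4 KD 1 to 4 and 207, 183, 172 and 334 CPM in HFD/FGFR4 KD 1 to 4. The groups were far apart, and HFD/FGFR4 KD 1 lay among its own group. The difference was 2.72 ± 0.352 log2 (adjusted p = 0.000755), and 2.74 without HFD/FGFR4 KD 1. In saline mice the mean Cyp7a1 level was 52.1 ± 21.4 CPM on chow and 41.4 ± 12.8 CPM on HFD (SD, n = 4), a difference of -0.28 that did not pass the test (adjusted p = 0.653). The diet difference under KD exceeded that in saline mice by 3.01 log2 (interaction term, adjusted p = 0.0764).

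Of 16 genes of bile acid synthesis and conjugation 3 rose and 2 fell, a total of 3 without HFD/FGFR4 KD 4, with a median of 0.07 against -0.01 over all genes tested. Akr1d1, which reduces the steroid ring of bile acid precursors, stood at 108, 103, 136 and 104 CPM on chow and 175, 175, 193 and 255 CPM on HFD in libraries 1 to 4 of each group. Its groups did not overlap (0.82 ± 0.137 log2, adjusted p = 0.0052), and in saline mice it did not pass the test (0.19, adjusted p = 0.392). Cyp8b1, the sterol 12α-hydroxylase that sets the share of cholic acid, rose by 0.67 ± 0.223 (adjusted p = 0.111), but not when HFD/FGFR4 KD 4 or Chow/FGFR4 KD 4 was left out.

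The falls were in the rodent and alternative branches. Cyp2c70, which makes the muricholic acids of mice, stood at 270, 468, 372 and 503 CPM on chow and 414, 123, 189 and 117 CPM on HFD. The chow range held HFD/FGFR4 KD 1, and the other 3 HFD libraries lay below it. The difference was -1.09 ± 0.345 (adjusted p = 0.0916), and -1.48 (adjusted p = 0.00873) without HFD/FGFR4 KD 1. Cyp7b1, the oxysterol 7α-hydroxylase of the alternative pathway and itself higher in male liver, stood at 164, 352, 263 and 448 CPM on chow and 336, 71.3, 48.1 and 65.5 CPM on HFD. Among them HFD/FGFR4 KD 1 was at a chow level. The difference was -1.63 ± 0.584 (adjusted p = 0.134) with that library and -2.25 (adjusted p = 0.0231) without it. Cyp7b1 was not called when any of HFD/FGFR4 KD 2, 3 or 4 or Chow/FGFR4 KD 4 was left out. Neither edgeR's quasi-likelihood test nor DESeq2 called it.

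Among receptors and regulators of this pathway, Klb, Nr1h4 and Mafg rose. Klb, the co-receptor of FGFR4, ranged over 15.2 to 23.2 CPM on chow and 23.4 to 31.4 CPM on HFD and rose by 0.56 ± 0.154 (adjusted p = 0.0576). Nr1h4, which encodes the bile acid receptor FXR, rose by 0.35 ± 0.121 (adjusted p = 0.121), and lost its call without HFD/FGFR4 KD 2 or 4. Nr0b2, which encodes the FXR-induced repressor SHP, ranged over 11.7 to 37.8 CPM on chow and 13.1 to 25.1 CPM on HFD, and its difference of -0.02 did not pass the test (adjusted p = 0.979). Mafg, another bile-acid-responsive repressor, rose by 0.44 ± 0.101 (adjusted p = 0.0262). Of 20 tested genes of FGFR4 signalling and its ERK feedback 2 rose, Klb and Ccnd1, and 5 fell, a total that went from 7 to 3 without Chow/FGFR4 KD 1 or HFD/FGFR4 KD 3. Among 14 tested transporters of bile acids and biliary lipids 3 rose and 2 fell. Abcb4, which puts phosphatidylcholine into bile, stood at 223, 270, 233 and 218 CPM on chow and 326, 347, 330 and 311 CPM on HFD. It was higher in every HFD library (0.48 ± 0.104, adjusted p = 0.0214), as it was in saline mice (0.54, adjusted p = 0.00488).

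Most genes of cholesterol synthesis rose under KD. All 20 listed genes had a positive difference, 15 of them called, with a median of 0.61 log2. Without HFD/FGFR4 KD 1, 18 were called and the median was 0.72. Without HFD/FGFR4 KD 3 the count was 11. With no library left out, 5 had an adjusted p under 0.05. In saline mice 1 rose and 6 fell, with a median of -0.20, and the difference between the diet effects was called for 2 of the 20. With library totals in place of TMM the KD median was 0.77, while the median of all genes was 0.14.

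Hmgcs1, the cytosolic HMG-CoA synthase that feeds the pathway, stood at 304, 291, 310 and 254 CPM in Chow/FGFR4 KD 1 to 4 and 382, 660, 846 and 765 CPM in HFD/FGFR4 KD 1 to 4. The groups did not overlap, and HFD/FGFR4 KD 1 lay nearer to chow than to the other HFD libraries. Its difference was 1.14 ± 0.283 (adjusted p = 0.0392) and 1.38 without that library. Msmo1, the sterol-C4-methyl oxidase, stood at 94, 113, 137 and 119 CPM on chow and 176, 239, 249 and 273 CPM on HFD. It rose by 1.01 ± 0.209 (adjusted p = 0.0176), against -0.33 in saline mice (adjusted p = 0.335). Fdft1, squalene synthase, rose by 0.89 ± 0.194 (adjusted p = 0.0224, 31.9% of its 31-base words shared with other genes) and Nsdhl, a sterol dehydrogenase, by 0.60 ± 0.132 (adjusted p = 0.0231). Sqle, squalene epoxidase, rose by 0.87 ± 0.301 (adjusted p = 0.121). Cyp51, the lanosterol demethylase, named here after its values were seen, rose by 0.45 ± 0.161 (adjusted p = 0.129), but not without HFD/FGFR4 KD 3.

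Acat2, the acetyl-CoA acetyltransferase at the start of the pathway, was called only without HFD/FGFR4 KD 1 (0.73, adjusted p = 0.0467).

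Tm7sf2, a sterol C14-reductase, and Idi1, the isopentenyl diphosphate isomerase, rose under KD where they fell in saline mice. Tm7sf2 (chromosome 19, 6062821 to 6068373) stood at 99.8, 90.4, 87.4 and 89.1 CPM in Chow/FGFR4 KD 1 to 4 and 111, 115, 117 and 120 CPM in HFD/FGFR4 KD 1 to 4. Its groups did not overlap (0.33 ± 0.0768, adjusted p = 0.0277), the saline difference was -0.58 (adjusted p = 0.000577), and the 2 diet differences differed by 0.91 (adjusted p = 0.00254). Idi1 (chromosome 13, 8885501 to 8892451) stood at 155, 169, 143 and 178 CPM on chow and 210, 249, 280 and 258 CPM on HFD. It rose by 0.62 ± 0.173 (adjusted p = 0.0613) against -0.70 in saline mice (adjusted p = 0.0176), a difference of 1.33 (adjusted p = 0.139).

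Of 14 tested genes of the SREBP2 system and LDL uptake 6 rose and 0 fell, a count that was 8 without HFD/FGFR4 KD 1 and 2 without Chow/FGFR4 KD 4, HFD/FGFR4 KD 3 or HFD/FGFR4 KD 4. Srebf2, which encodes SREBP2, rose by 0.48 ± 0.148 (adjusted p = 0.0856). Insig1, which retains the SREBP complex in the endoplasmic reticulum, rose by 0.68 ± 0.267 (adjusted p = 0.166), but not without Chow/FGFR4 KD 2 or 4 or HFD/FGFR4 KD 3 or 4. Abca1, the cholesterol efflux pump, ranged over 128 to 253 CPM on chow and 71.5 to 147 CPM on HFD and fell (-0.87 ± 0.22, adjusted p = 0.0425), with HFD/FGFR4 KD 1, at 147 CPM, inside the chow range.

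The promoter of Hmgcs1 is shown because it was the only one of the 15 cholesterol synthesis genes with a RefSeq promoter entry to hold the sterol regulatory element TCACNCCAC on either strand. The stretch is the 150 bases before a RefSeq start (chr13:119690201-119690350, GRCm38.p6, plus strand), with the element, which begins 137 bases before the start, in capitals.
Hmgcs1: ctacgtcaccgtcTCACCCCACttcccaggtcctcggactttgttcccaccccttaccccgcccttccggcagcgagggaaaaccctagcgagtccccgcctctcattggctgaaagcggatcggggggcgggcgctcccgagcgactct
Of all 32851 RefSeq promoters of the same length, 250 bases before to 50 after a start, 1.24% held this element, against 1 of 18 in the list (5.56%) and 0 of 13 in the SREBP2 and LDL uptake list. A match is a description of the letters and no evidence of binding.

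**Figure D2:**
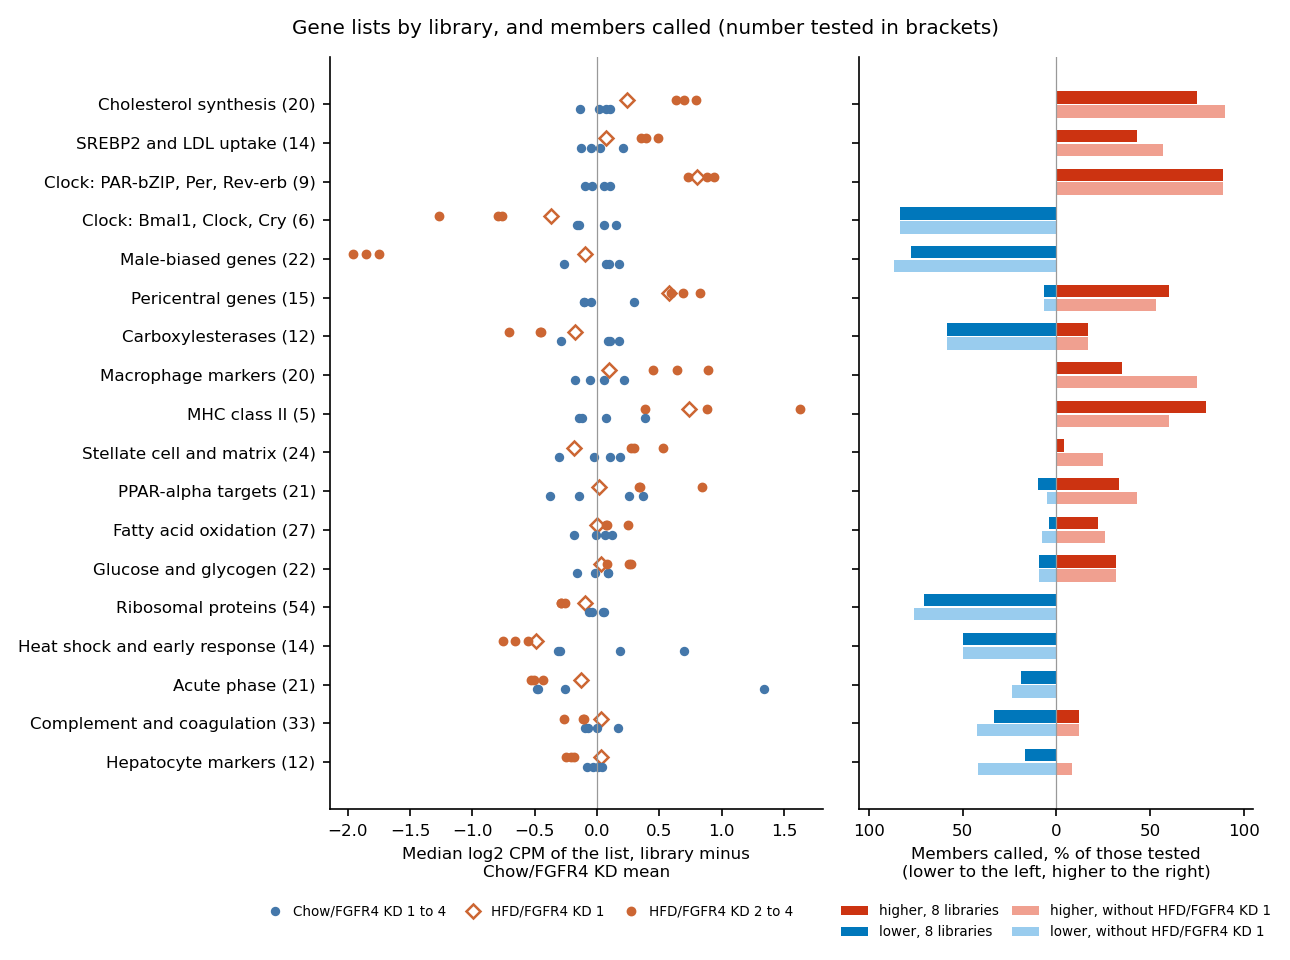
Left, median log2 CPM of each gene list in each library minus the Chow/FGFR4 KD mean, for Chow/FGFR4 KD (blue) and HFD/FGFR4 KD (orange, HFD/FGFR4 KD 1 as an open diamond). Right, members called higher (red, to the right) and lower (blue, to the left) as a percent of members tested, dark with all 8 libraries and pale without HFD/FGFR4 KD 1; the diamond lies with its group for the pericentral and first clock lists and near 0 for male-biased genes.

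Of 21 tested lipogenesis genes 4 rose and 1 fell, as a share near the 20.2% called over all genes. In saline mice 8 rose and 1 fell. The 4 that rose under KD were desaturases and elongases that act on polyunsaturated fatty acids. Fads2, the Δ6-desaturase, stood at 256, 193, 170 and 146 CPM in Chow/FGFR4 KD 1 to 4 and 325, 544, 534 and 461 CPM in HFD/FGFR4 KD 1 to 4. Its groups did not overlap (1.28 ± 0.197, adjusted p = 0.00303, 1.45 without HFD/FGFR4 KD 1), and Fads1, the Δ5-desaturase, rose by 0.87 ± 0.175 (adjusted p = 0.0158). The elongases Elovl2 and Elovl5 rose by 0.66 ± 0.151 (adjusted p = 0.0277) and 1.25 ± 0.372 (adjusted p = 0.0756). Elovl3, an elongase that is higher in male liver and follows the clock, fell instead, from 566 to 844 CPM on chow to 160 to 377 CPM on HFD (-1.60 ± 0.265, adjusted p = 0.00488). Agpat3, an acyltransferase of phospholipid synthesis, rose by 0.47 ± 0.0756 (adjusted p = 0.00396).

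The lipogenic enzymes proper did not pass the test. Scd1, the Δ9-desaturase, stood at 13144, 2584, 5712 and 3141 CPM on chow and 1541, 7258, 7661 and 4703 CPM on HFD. Fasn, fatty acid synthase, stood at 704, 275, 572 and 322 CPM on chow and 217, 551, 648 and 612 CPM on HFD. Both varied widely within chow as well as HFD, with HFD/FGFR4 KD 1 the lowest of the 8 for each, and their differences of -0.15 ± 0.622 (adjusted p = 0.925) and 0.10 ± 0.45 (adjusted p = 0.927) changed sign under alternatives given in the closing section.

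Some genes of fatty acid uptake and oxidation rose. Cpt1a, the gate of mitochondrial fatty acid entry, stood at 279, 286, 181 and 222 CPM on chow and 367, 478, 388 and 409 CPM on HFD. It was higher in every HFD library (0.78 ± 0.131, adjusted p = 0.00528). Hadh and Acadm, enzymes of β-oxidation, rose by 0.64 ± 0.139 (adjusted p = 0.0217) and 0.39 ± 0.0978 (adjusted p = 0.0406). In all, 6 of 27 tested oxidation genes rose and 1 fell under KD, as a share somewhat above the 20.2% called over all genes. In saline mice 16 rose and 1 fell, but no gene of the list had a called difference between the diet effects. Cd36, the fatty acid translocase, stood at 50.8, 14.2, 40.3 and 28.4 CPM on chow and 44.2, 107, 131 and 118 CPM on HFD. The chow range held HFD/FGFR4 KD 1, with the other 3 above it (1.61 ± 0.492, adjusted p = 0.0819, and 1.97 without that library). The fatty acid binding proteins went opposite ways, Fabp2 up by 1.37 ± 0.297 (adjusted p = 0.0214) and Fabp5 down, with 9.08 to 36.1 CPM on chow and 3.32 to 6.72 CPM on HFD (-2.07 ± 0.536, adjusted p = 0.0455).

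Of 21 tested PPARα targets 7 rose and 2 fell. Ppara itself stood at 76.5, 84.8, 78.7 and 64.5 CPM on chow and 139, 136, 107 and 99.2 CPM on HFD. It was higher in every HFD library (0.65 ± 0.141, adjusted p = 0.0221), with HFD/FGFR4 KD 1 the highest of all. Fgf21, a hormone the liver secretes, stood at 2.38, 1.37, 0.303 and 0.276 CPM on chow and 2.38, 5.75, 8.97 and 5.96 CPM on HFD. On HFD, library 1 was level with the highest chow library and the other 3 HFD libraries lay above it (2.59 ± 0.644, adjusted p = 0.0393), and the saline difference of 0.67 did not pass the test (adjusted p = 0.451). Bdh1, which interconverts the ketone bodies, rose by 0.81 ± 0.166 (adjusted p = 0.0176), with HFD/FGFR4 KD 1, at 143 CPM, inside the chow range. Cyp4a14, a classical PPARα target, ranged over 20.3 to 338 CPM on chow and 21 to 466 CPM on HFD and did not pass the test (1.25 ± 0.937, adjusted p = 0.485). Its level in HFD/FGFR4 KD 1 was 21 CPM, and without that library it was called (2.29, adjusted p = 0.0811).

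Lipid carriers and lipases also responded. Apoa4, an apolipoprotein of triglyceride-rich particles, stood at 101, 71.1, 79.3 and 129 CPM in Chow/FGFR4 KD 1 to 4 and 172, 1156, 603 and 652 CPM in HFD/FGFR4 KD 1 to 4. All HFD libraries were above chow, HFD/FGFR4 KD 1 by the least (2.51 ± 0.522, adjusted p = 0.0177, 3.05 without it). Apoc2, the activator of lipoprotein lipase, rose by 1.31 ± 0.346 (adjusted p = 0.0494). Of the 31-base words of these genes 64.5% and 78.8% occur in other genes, so their levels are uncertain. Lipg, endothelial lipase, stood at 6.74, 6.4, 8.78 and 4.96 CPM on chow and 18.2, 24.6, 19.1 and 17.9 CPM on HFD. It rose in every HFD library by a similar amount (1.57 ± 0.193, adjusted p = 0.000577). Apom, an HDL apolipoprotein, fell by 0.81 (adjusted p = 0.00528). Of 20 apolipoprotein and lipoprotein genes 8 rose and 3 fell, and 6 in all were called without Chow/FGFR4 KD 3 or HFD/FGFR4 KD 4. Among lipid droplet genes 3 of 18 tested rose and 1 fell, as a share near the 20.2% called over all genes. Without Chow/FGFR4 KD 4 the total was 2. G0s2, an inhibitor of adipose triglyceride lipase, rose by 1.15 ± 0.295 (adjusted p = 0.0445) against -0.42 in saline mice (adjusted p = 0.346), a difference that did not pass the test (adjusted p = 0.491). Cidec, a lipid droplet protein of fatty liver, ranged over 1.1 to 9.12 CPM on chow and 2.6 to 23 CPM on HFD and did not pass it (1.29 ± 1.1, adjusted p = 0.552).

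Of 22 tested genes of glucose and glycogen metabolism 7 rose and 2 fell, a total that was 5 without HFD/FGFR4 KD 4. Gk, glycerol kinase, which is outside that list, rose by 1.06 ± 0.137 (adjusted p = 0.000755). Pck1, the cytosolic PEP carboxykinase of gluconeogenesis, fell by 0.51 (adjusted p = 0.092) but not without HFD/FGFR4 KD 4. G6pc, the last enzyme of glucose output, named here after its values were seen, did not pass the test (-0.36 ± 0.405, adjusted p = 0.663) while it fell by 1.83 in saline mice (adjusted p = 0.0109), and the difference between these did not pass it either (adjusted p = 0.684).

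2 genes that fasting induces and insulin lowers were far lower on HFD. Other genes of fuel metabolism given above did not follow them. Pck1 fell by less, G6pc did not pass the test, and Fgf21 and Cpt1a rose. Igfbp1, an IGF-binding protein, stood at 247, 86.6, 217 and 375 CPM on chow and 34.7, 25.2, 79.7 and 36.3 CPM on HFD. Its groups did not overlap (-2.32 ± 0.516, adjusted p = 0.0236). Irs2, the insulin receptor substrate of liver, stood at 48, 51, 43.3 and 61.8 CPM on chow and 32.3, 13.1, 26.7 and 14 CPM on HFD. It was lower in every HFD library (-1.30 ± 0.249, adjusted p = 0.0126). In the insulin and IGF list 2 of 17 genes rose and 4 fell, a total of 3 without Chow/FGFR4 KD 4 or HFD/FGFR4 KD 2 or 4.

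Among secreted factors Inhbe, the activin E subunit, stood at 23.6, 22.3, 25.4 and 18.7 CPM on chow and 61.1, 90.9, 50.3 and 75.7 CPM on HFD. It rose by 1.58 ± 0.217 (adjusted p = 0.00109), as it did in saline mice (1.34, adjusted p = 0.00106). Lect2, a hepatokine, rose by 1.15 ± 0.16 (adjusted p = 0.00115), and Serpina6, corticosteroid-binding globulin, by 1.01 ± 0.166 (adjusted p = 0.00488). Hamp, which encodes the iron hormone hepcidin, stood at 118, 159, 224 and 185 CPM on chow and 132, 87.2, 0.332 and 24.6 CPM on HFD. The chow range held HFD/FGFR4 KD 1 while HFD/FGFR4 KD 3 was near 0, and the difference of -3.44 ± 1.14 (adjusted p = 0.106) was not called by DESeq2 or edgeR's quasi-likelihood test. It was -4.55 without HFD/FGFR4 KD 1 and -1.32 without HFD/FGFR4 KD 3. Of the words of Hamp transcripts 33.7% are shared with other genes.

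Other genes among the strongest rises had varied roles. Gulo, the last enzyme of ascorbate synthesis, rose by 0.90 ± 0.121 (adjusted p = 0.00097) and Ttpa, the hepatic α-tocopherol transfer protein, by 0.52 ± 0.07 (adjusted p = 0.00097). Prlr, the prolactin receptor, rose by 1.13 ± 0.16 (adjusted p = 0.00139) and Sesn3, a sestrin, by 0.94 ± 0.141 (adjusted p = 0.00254). Slc26a1, a sulfate transporter, rose by 0.53 ± 0.0833 (adjusted p = 0.00364) and Agxt2, a mitochondrial aminotransferase, by 0.60 ± 0.0892 (adjusted p = 0.00205). Slc17a4, a member of the phosphate transporter family, rose by 1.02 ± 0.188 (adjusted p = 0.0102). In each of these 7 genes the 4 HFD libraries lay above the 4 chow libraries.

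Among the strongest falls outside the groups below, Wsb1, a ubiquitin ligase adaptor, ranged over 22.4 to 47.6 CPM on chow and 10.9 to 16.3 CPM on HFD (-1.60 ± 0.263, adjusted p = 0.00488). Carmil1, a regulator of actin capping, fell by 1.18 (adjusted p = 0.00488) and Cmtm6, a membrane protein that stabilizes PD-L1, by 0.81 (adjusted p = 0.00577). Slco2a1, a prostaglandin transporter, fell by 0.75 (adjusted p = 0.0455) and by 1.96 in saline mice.

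Genes of the molecular clock differed between the diets in opposite directions in 2 lists, called arms here. In the liver clock, CLOCK and BMAL1 (Arntl) drive the Per, Cry and Rev-erb (Nr1d1) genes and the PAR-bZIP factors Dbp, Tef and Hlf from E-boxes, and Rev-erb in turn represses Arntl and Nfil3 from ROR elements. Cry1 was listed with Arntl, Clock, Npas2 and Nfil3 in the opposite arm, although in this scheme E-boxes drive it. Of 9 tested PAR-bZIP, Per and Rev-erb genes 8 rose and 0 fell. Of 6 genes of the opposite arm 0 rose and 5 fell, Cry1 among them. The first count was 5 without Chow/FGFR4 KD 1 or 2 or HFD/FGFR4 KD 2 or 3, and the second 3 without Chow/FGFR4 KD 3 or HFD/FGFR4 KD 2 and 3 with library totals.

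Dbp stood at 0.397, 1.6, 0.908 and 0.827 CPM in Chow/FGFR4 KD 1 to 4 and 13.7, 34.5, 16.4 and 19.2 CPM in HFD/FGFR4 KD 1 to 4. Every HFD library was above every chow library, with 3 of 4 chow libraries under 1 CPM (4.34 ± 0.975, adjusted p = 0.0249). Per3 stood at 1.78, 1.37, 2.72 and 0.827 CPM on chow and 7.37, 18.4, 10.8 and 11.1 CPM on HFD. It was higher in every HFD library (2.77 ± 0.592, adjusted p = 0.0211), and Tef, at 31.9 to 47.6 CPM on chow and 68.1 to 103 CPM on HFD, rose by 1.16 ± 0.19 (adjusted p = 0.00488). Nr1d1 rose by 0.82 ± 0.226 (adjusted p = 0.0602), with HFD/FGFR4 KD 1 the highest. Per1 was the tested member that was not called (0.51 ± 0.252, adjusted p = 0.265).

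On the other arm Cry1 stood at 16.3, 16.5, 21.8 and 19.6 CPM in Chow/FGFR4 KD 1 to 4 and 7.37, 6.42, 5.81 and 10.6 CPM in HFD/FGFR4 KD 1 to 4. The groups did not overlap (-1.33 ± 0.222, adjusted p = 0.0052). Npas2, a paralogue of Clock, stood at 5.75, 8.92, 8.48 and 3.03 CPM on chow and 1.95, 0.885, 1.99 and 1.04 CPM on HFD. It was lower in every HFD library (-2.02 ± 0.686, adjusted p = 0.116), and Nfil3 fell by 0.87 (adjusted p = 0.109, and by 0.57 without Chow/FGFR4 KD 4). Arntl fell by 0.73 (adjusted p = 0.162) and Clock by 0.36 (adjusted p = 0.177). Each of these last 2 lost its call with library totals, with no filter on low counts and when any of 4 libraries was left out, among them Chow/FGFR4 KD 3 and HFD/FGFR4 KD 2 for both.

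A clock index, the mean log2 CPM of the first arm's genes minus that of the second, with no centring, was computed for each library. It was -1.36, -1.07, -1.19 and -1.2 in Chow/FGFR4 KD 1 to 4 and 0.428, 1.55, 0.992 and 0.912 in HFD/FGFR4 KD 1 to 4. The difference was 2.17, and 2.36 without HFD/FGFR4 KD 1. An exact permutation test gave a two-sided p of 0.0286 for the former, the smallest value that 4 against 4 allows. Because the lists were chosen with earlier results of these data known, this p adds no support beyond the lack of overlap. Saline mice lay at -0.354, -0.209, -0.908 and -1.49 on chow and at 0.986, 1.87, 2.01 and 2.77 on HFD. Every HFD library was thus above every chow library with and without KD. Collection hours were not given, so their part in the difference was not tested.

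**Figure D3:**
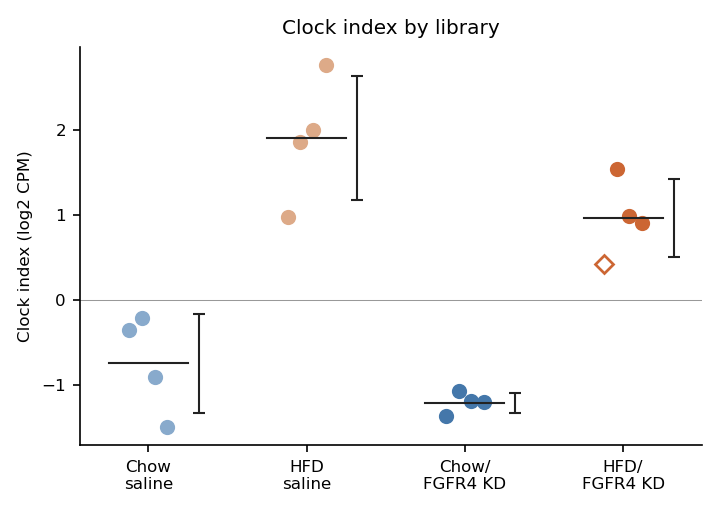
Clock index (log2 CPM, first-arm mean minus second-arm mean) in each of the 16 libraries by group, with the group mean as a line, the SD as a bar beside it (n = 4) and HFD/FGFR4 KD 1 as an open diamond. The HFD/FGFR4 KD libraries lie between 0.428 and 1.55 and the Chow/FGFR4 KD libraries between -1.36 and -1.07.

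The promoters of Tef, Cry1 and Nfil3 are shown as examples. These genes moved in the clock lists and hold an E-box (CACGTG) or a ROR element (TAGGTCA) in their RefSeq promoter on GRCm38.p6. Arntl, which fell, also holds a ROR element, and Ciart and Per1 hold an E-box, but their promoters are not shown. Each stretch is the 150 bases before a start, with the element in capitals. Tef has 2 starts (chr15:81802523-81802672 and chr15:81811264-81811413, plus strand), with an E-box 127 and 138 bases before them.
Tef start 1: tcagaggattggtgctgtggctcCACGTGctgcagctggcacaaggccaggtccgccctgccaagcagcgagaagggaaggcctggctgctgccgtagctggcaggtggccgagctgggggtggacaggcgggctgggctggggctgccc
Tef start 2: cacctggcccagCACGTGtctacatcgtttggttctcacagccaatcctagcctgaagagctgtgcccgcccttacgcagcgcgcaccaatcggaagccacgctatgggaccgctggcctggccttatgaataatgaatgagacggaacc
Cry1 (chr10:85185055-85185204, minus strand) has an E-box 60 bases before its start, although it fell while Tef rose.
Cry1: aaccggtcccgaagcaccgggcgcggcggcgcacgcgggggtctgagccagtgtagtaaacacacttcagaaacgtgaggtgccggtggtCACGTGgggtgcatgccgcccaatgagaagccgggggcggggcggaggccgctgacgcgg
Nfil3 (chr13:52981040-52981189, minus strand) holds a ROR element on the strand opposite to the gene, so the capitals read TGACCTA, 12 bases before its start.
Nfil3: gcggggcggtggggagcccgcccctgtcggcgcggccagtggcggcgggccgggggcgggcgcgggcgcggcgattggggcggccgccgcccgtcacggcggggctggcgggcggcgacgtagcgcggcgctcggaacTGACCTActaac
Searched on both strands, the E-box was in 4 of 11 promoters of the PAR-bZIP, Per and Rev-erb list (36.4%) and in 7.15% of all 32851 promoters. These 4 promoters belong to 3 of the 9 genes with an entry, Ciart, Per1 and Tef, and 2 of them are of Tef. Per1 was not called, and no E-box was found for Dbp or Per3. The ROR element was in 2 of 8 promoters of the opposite arm (25%) and in 2.61% of all promoters. For the other pairings, the E-box was in 1 of 8 promoters of the opposite arm (12.5%) and the ROR element in 0 of 11 of the first. These are matches of letters only.

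Genes with higher expression in male than in female liver, a difference set by the growth hormone pattern, fell as a group. Of 22 tested male-biased genes 0 rose and 17 fell, with a median of -1.61. HFD/FGFR4 KD 1 lay at the chow level for this list, with a median of -0.10 against the Chow/FGFR4 KD mean, while HFD/FGFR4 KD 2, 3 and 4 lay at -1.75, -1.85 and -1.96. Without it 19 fell and the median was -1.97, without HFD/FGFR4 KD 3 or 4 the count was 9 or 11, and DESeq2 called 11. In saline mice 20 fell, with a median of -2.60.

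Cyp4a12a, a male-specific fatty acid hydroxylase, stood at 428, 414, 356 and 406 CPM in Chow/FGFR4 KD 1 to 4 and 199, 96.6, 106 and 55.2 CPM in HFD/FGFR4 KD 1 to 4. All HFD libraries were below chow (-1.95 ± 0.388, adjusted p = 0.0155). Ugt2b1, a glucuronosyltransferase, stood at 399, 510, 526 and 423 CPM on chow and 354, 166, 170 and 143 CPM on HFD. HFD/FGFR4 KD 1 was just below the lowest chow library and the other 3 HFD libraries far below (-1.25 ± 0.231, adjusted p = 0.0102). Hsd3b5, a male-specific hydroxysteroid dehydrogenase, stood at 146, 113, 99.6 and 86.3 CPM on chow and 166, 10.1, 1.49 and 1.56 CPM on HFD. HFD/FGFR4 KD 1 exceeded every chow library while HFD/FGFR4 KD 3 and 4 were near 1.5 CPM, and the difference was -3.81 ± 1.09 (adjusted p = 0.0672) with it and -5.24 (adjusted p = 0.0397) without. The edgeR quasi-likelihood test did not call it (adjusted p = 0.536). Mup17, a major urinary protein gene, stood at 1433, 3632, 3142 and 3184 CPM on chow and 1590, 171, 18.7 and 37.1 CPM on HFD. Within the chow range was HFD/FGFR4 KD 1, with the other 3 HFD libraries far below it (-4.53 ± 1.19, adjusted p = 0.0497, and -5.81 without that library). Serpina1e, an α1-antitrypsin gene named here after its values were seen, fell by 2.12 (adjusted p = 0.111), but not without HFD/FGFR4 KD 3. The MUP, Serpina1, Cyp4a12 and Hsd3b genes have near-identical copies, with 86.2% of the words of Mup17, 62.2% of Cyp4a12a, 54.2% of Serpina1e and 34.1% of Hsd3b5 shared with other genes, so reads could have been divided among copies.

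Of 23 female-biased genes 5 passed the filter on low counts, 3 of which rose. A gene under 1 CPM in every chow library, with and without KD, could not pass it. One under 1 CPM in every Chow/FGFR4 KD library could pass only with every other library at 1 CPM or more. Cyp17a1, a steroid hydroxylase, stood at 3.57, 4.34, 1.21 and 3.86 CPM on chow and 17.3, 28.1, 24.1 and 23.8 CPM on HFD. Ntrk2, a neurotrophin receptor, stood at 2.39, 0, 7.39 and 1.26 CPM on chow and 7.5, 15.8, 14.5 and 14.3 CPM on HFD. Both rose, by 2.85 ± 0.672 (adjusted p = 0.0313) and 3.29 ± 0.801 (adjusted p = 0.0367), and in both HFD/FGFR4 KD 1 was the lowest of the HFD libraries. Without Chow/FGFR4 KD 2 the Ntrk2 difference was 2.15.

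Drug-metabolizing enzymes changed in both directions. Cyp3a11, the main CYP3A of mouse liver, stood at 5139, 5095, 5683 and 4099 CPM in Chow/FGFR4 KD 1 to 4 and 533, 967, 2240 and 1367 CPM in HFD/FGFR4 KD 1 to 4. All HFD libraries were below chow, with HFD/FGFR4 KD 1 the lowest (-2.15 ± 0.412, adjusted p = 0.0127). Cyp2c29 and Cyp2f2 fell by 0.94 (adjusted p = 0.00889) and 0.87 (adjusted p = 0.000785). Cyp2c38 stood at 24.8, 21.9, 18.4 and 24 CPM on chow and 35.3, 92.7, 91.8 and 97 CPM on HFD. It rose in every HFD library, with HFD/FGFR4 KD 1 much nearer to chow (1.71 ± 0.334, adjusted p = 0.0142). Of 22 P450 genes and their regulators 5 rose and 7 fell.

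Of 12 tested carboxylesterases, which hydrolyse lipid and drug esters, 2 rose and 7 fell. Ces2a stood at 365, 380, 351 and 279 CPM in Chow/FGFR4 KD 1 to 4 and 117, 80.5, 109 and 92.5 CPM in HFD/FGFR4 KD 1 to 4. The groups were well apart, with HFD/FGFR4 KD 1 close to its group (-1.78 ± 0.156, adjusted p = 3e-05). Ces1d and Ces1f, both triglyceride hydrolases, fell by 0.87 (adjusted p = 0.0298) and 0.73 (adjusted p = 0.00386).

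Conjugating enzymes split, with 8 higher and 10 lower of 33. Gstp1, glutathione S-transferase π, stood at 777, 1232, 984 and 1103 CPM in Chow/FGFR4 KD 1 to 4 and 437, 187, 172 and 174 CPM in HFD/FGFR4 KD 1 to 4. In between lay HFD/FGFR4 KD 1 (-2.18 ± 0.245, adjusted p = 0.000277, -2.51 without it). Its neighbour Gstp2 fell by 2.56 (adjusted p = 0.00386), but each of the 2 had the same counts as a second gene identifier in every library and shared 38.5% and 60.3% of its words with other genes, so the pair cannot be separated with certainty. The glucuronosyltransferases Ugt2b5 and Ugt2b35 fell by 0.75 (adjusted p = 6.26e-05) and 1.05 (adjusted p = 0.000314). Sult1a1, a sulfotransferase named after its values were seen, rose by 0.75 ± 0.166 (adjusted p = 0.0231).

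Genes of hepatocytes around the central vein, which WNT/β-catenin signalling maintains, mostly rose. Of 15 pericentral genes 9 rose and 1 fell, with a median of 0.79. HFD/FGFR4 KD 1 lay with its group, at a list median of 0.58 against 0.60, 0.69 and 0.83 in HFD/FGFR4 KD 2, 3 and 4. In saline mice 6 rose and 1 fell, with a median of 0.48.

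Glul, glutamine synthetase, stood at 570, 561, 682 and 652 CPM in Chow/FGFR4 KD 1 to 4 and 905, 1132, 1050 and 1192 CPM in HFD/FGFR4 KD 1 to 4. Its groups did not overlap (0.79 ± 0.1, adjusted p = 0.000711). Oat, ornithine aminotransferase, stood at 544, 487, 774 and 508 CPM on chow and 1249, 859, 1068 and 1594 CPM on HFD. It was highest in HFD/FGFR4 KD 4 and 1 (1.03 ± 0.244, adjusted p = 0.032). Rnf43, a WNT feedback ubiquitin ligase, rose by 1.47 ± 0.317 (adjusted p = 0.0214) and Tbx3, a transcription factor of pericentral cells, by 1.03 ± 0.276 (adjusted p = 0.0516). Tbx3 did not pass the test in saline mice (-0.02, adjusted p = 0.975), and the difference of 1.05 between the diet effects did not pass it either (adjusted p = 0.646). Axin2, a direct WNT target, did not pass it under KD (0.39 ± 0.255, adjusted p = 0.416). Cyp1a2, named after its values were seen, was the list's fall (-0.76 ± 0.268, adjusted p = 0.128) and was not called without Chow/FGFR4 KD 3 or HFD/FGFR4 KD 2.

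Amino acid and methyl metabolism moved both ways. Of 31 urea cycle and amino acid genes 9 rose and 5 fell, a total of 8 without HFD/FGFR4 KD 4, and of 20 tested one-carbon genes 7 rose and 3 fell, a total of 4 without Chow/FGFR4 KD 4. Arg1, arginase, fell from 704 to 863 CPM on chow to 569 to 655 CPM on HFD (-0.39 ± 0.0789, adjusted p = 0.0165), a small difference that was not called with library totals. Mat1a, the hepatic S-adenosylmethionine synthetase, rose by 0.47 ± 0.0931 (adjusted p = 0.0156). Csad, which makes the taurine precursor hypotaurine, stood at 451, 438, 354 and 322 CPM on chow and 112, 255, 153 and 199 CPM on HFD. It was lower in every HFD library (-1.17 ± 0.306, adjusted p = 0.0478).

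The count of macrophage markers that rose depended on single libraries. With all 8 libraries 7 of 20 tested markers rose and 0 fell, without HFD/FGFR4 KD 1 15 rose, and without HFD/FGFR4 KD 4 only 3 did. The summed level of the 28 markers lay between 184 and 267 CPM on chow and between 237 and 385 CPM on HFD, with HFD/FGFR4 KD 1 the lowest of the latter. Cd5l, a Kupffer cell protein, stood at 18.8, 14.4, 22.1 and 22.1 CPM on chow and 26.4, 31, 32 and 47.9 CPM on HFD. It was higher in every HFD library (0.81 ± 0.224, adjusted p = 0.0599). Csf1r, the macrophage growth factor receptor, rose by 0.50 ± 0.171 (adjusted p = 0.118) but not without HFD/FGFR4 KD 4. Cd68 stood at 2.18, 1.6, 1.82 and 2.21 CPM on chow and 1.52, 3.76, 4.32 and 4.92 CPM on HFD. It was called only without HFD/FGFR4 KD 1 (1.09, adjusted p = 0.0305), and Adgre1, which encodes F4/80, was called in neither fit (0.74, adjusted p = 0.168).

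Of 5 tested MHC class II genes 4 rose, but 0 were called without HFD/FGFR4 KD 4 and 1 without Chow/FGFR4 KD 2 or 4 or HFD/FGFR4 KD 3. H2-Aa stood at 8.13, 5.94, 9.69 and 6.07 CPM on chow and 12.6, 10.6, 15.1 and 24.6 CPM on HFD. Its groups did not overlap and HFD/FGFR4 KD 4 was the highest (1.01 ± 0.386, adjusted p = 0.157). In 30 tested interferon genes 5 rose and 1 fell, as a share near the 20.2% called over all genes. In saline mice 15 rose and 1 fell, and the total under KD was 3 without HFD/FGFR4 KD 4 and 11 with library totals. Bst2, an interferon-induced membrane protein, was the fall (-0.69 ± 0.0987, adjusted p = 0.00144).

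Markers of stellate cells and matrix gave 1 call, a rise, of 24 tested, which was 6 without HFD/FGFR4 KD 1 and 13 in saline mice. Col1a1 stood at 3.37, 5.49, 4.54 and 5.24 CPM on chow and 3.03, 21.9, 6.14 and 5.7 CPM on HFD. HFD/FGFR4 KD 2 stood alone and the difference did not pass the test (0.60 ± 0.898, adjusted p = 0.754). Of 17 endothelial markers Stab2, a scavenger receptor of sinusoidal cells, rose (0.52 ± 0.126, adjusted p = 0.0345). The 21 lymphoid and neutrophil markers summed to 13.2 to 18.1 CPM on chow and 18.3 to 24.1 CPM on HFD, with the neutrophil markers Ly6g and Mpo at 0 in all 8 libraries.

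Mki67, a marker of dividing cells, stood at 0.793, 1.37, 1.21 and 3.03 CPM on chow and 3.9, 10.6, 7.97 and 5.7 CPM on HFD. It rose from low counts (2.19 ± 0.532, adjusted p = 0.0364). Ccnd1, cyclin D1, stood at 13.3, 10.3, 13 and 9.65 CPM on chow and 17.3, 27.9, 53.5 and 35.5 CPM on HFD. It rose by 1.44 ± 0.407 (adjusted p = 0.0648), and Cdkn1a, the cell-cycle inhibitor p21, fell by 1.16 (adjusted p = 0.0508). Of 10 tested proliferation genes 3 rose and 1 fell, and 6 rose and 1 fell without HFD/FGFR4 KD 1.

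Metallothioneins and some acute-phase and heat shock genes fell, and in these lists Chow/FGFR4 KD 4 often stood apart from the other chow libraries. Mt1 and Mt2 encode metallothioneins, which bind zinc. Mt1 stood at 148, 76.1, 162 and 627 CPM in Chow/FGFR4 KD 1 to 4 and 7.59, 46.3, 13.9 and 10.1 CPM in HFD/FGFR4 KD 1 to 4. The groups did not overlap, but Chow/FGFR4 KD 4 was well above the other chow libraries (-3.60 ± 0.998, adjusted p = 0.0613). Mt2 fell by 4.35 (adjusted p = 0.0917). Without Chow/FGFR4 KD 4 the differences were -3.01 for Mt1 and -3.6 for Mt2, both still called. Mt2 had 58.1% of its words shared with other genes. In saline mice the differences of -0.56 (adjusted p = 0.771) and -0.18 (adjusted p = 0.953) did not pass the test, and neither did the differences between the diet effects (adjusted p = 0.73 and 0.739).

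Of 21 tested acute-phase genes 0 rose and 4 fell, a count of 8 without Chow/FGFR4 KD 4. As a share the 4 calls lay near the 20.2% called over all genes, where 10.1% were lower. Fga, Fgb and Fgg, the fibrinogen chains, fell by 0.81 (adjusted p = 0.0313), 0.75 (adjusted p = 0.0393) and 0.80 (adjusted p = 0.0367), and for each the highest value was that of Chow/FGFR4 KD 4. Without it they fell by 0.64, 0.57 and 0.61. Serpina3k, an inhibitor of serine proteases, stood at 7761, 8885, 7629 and 9275 CPM on chow and 7631, 3250, 2195 and 2706 CPM on HFD. At a chow level was HFD/FGFR4 KD 1 (-1.26 ± 0.362, adjusted p = 0.0678, and -1.64 without that library). Of 33 complement and coagulation genes 4 rose and 11 fell, a total of 7 without HFD/FGFR4 KD 3.

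Of 14 tested heat shock and early response genes 0 rose and 7 fell, a count of 2 without HFD/FGFR4 KD 4. Gadd45g, an early stress-response gene, stood at 31.3, 83.2, 50 and 48.2 CPM in Chow/FGFR4 KD 1 to 4 and 6.29, 5.98, 6.81 and 3.89 CPM in HFD/FGFR4 KD 1 to 4. The groups were well apart and the HFD libraries close together (-3.09 ± 0.55, adjusted p = 0.00788). The chaperone genes Hsp90aa1 and Hspa8 fell by 0.75 (adjusted p = 0.0902) and 0.43 (adjusted p = 0.195), with HFD/FGFR4 KD 1 inside the chow range for both, and both lost their call when HFD/FGFR4 KD 4 was left out, Hspa8 also without Chow/FGFR4 KD 3 or 4 or HFD/FGFR4 KD 2 or 3. Atf5, a factor of the integrated stress response, rose by 0.70 ± 0.134 (adjusted p = 0.0123).

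Ribosomal protein genes were lower by a small amount that depended on scaling. Of 54 genes 0 rose and 38 fell, with a median of -0.25. With library totals 4 were called and the median was -0.09, below the 0.14 of all genes. Rpsa stood at 275, 288, 262 and 310 CPM on chow and 249, 190, 181 and 184 CPM on HFD. It was lower in every HFD library (-0.50 ± 0.103, adjusted p = 0.0168, 31.2% of words shared with other genes), and Rps3 fell by 0.34 (adjusted p = 0.019) but not with library totals. Rack1, a protein of the small ribosomal subunit, fell by 0.40 (adjusted p = 0.00623). Of 36 complex I genes 6 fell, against 1 with library totals and 2 without HFD/FGFR4 KD 4, and Ndufa5 alone had an adjusted p under 0.05 (-0.79 ± 0.14, adjusted p = 0.00773). Over all genes 20.2% were called, and 10.1% were lower. Of 12 hepatocyte markers 0 rose and 2 fell, and without HFD/FGFR4 KD 1 1 rose and 5 fell.

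Set beside the diet effect of saline mice, the diet effect under KD had the same direction for 7908 of the 11324 genes tested (69.8%). Among the 2939 genes called in saline mice 2549 (86.7%) had it. Over all genes the median ratio of the KD to the saline difference was 0.546. In saline mice 2939 genes (26%) were called, 1506 higher (13.3%) and 1433 lower (12.7%). With library totals the count was 4306 and the higher share 92.1%, where TMM gave 51.2%. Of the genes called higher under KD, 540 were also called higher in saline mice, which is 47.0% of the KD list and 35.9% of the saline list. For lower genes the overlap was 576, or 50.3% and 40.2%. Over the 1042 genes called in saline mice at an adjusted p under 0.05, 985 (94.5%) had the same direction under KD and 610 (58.5%) were called in it, while 6 were called in the opposite one. The median of the KD difference divided by the saline difference was 0.582 in these genes and 0.683 without HFD/FGFR4 KD 1. Since these genes were chosen for their size in saline mice, a ratio under 1 is favoured by the choice. Across all 11324 genes, which are not independent, Pearson's r of the differences was 0.62 and Spearman's rho 0.539, and r was 0.658 without HFD/FGFR4 KD 1.

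**Figure D4:**
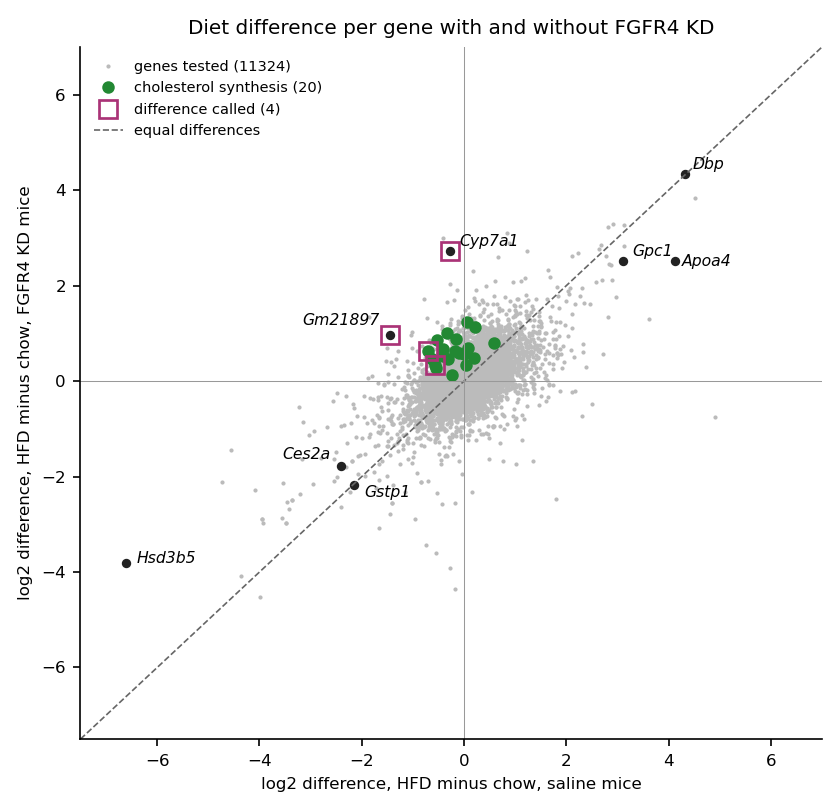
Log2 difference of HFD minus chow for each of 11324 genes in saline mice (x axis) and under FGFR4 KD (y axis), with the 20 cholesterol synthesis genes in green and the 4 genes whose differences were called as different in open squares (Cyp7a1 and Gm21897 are named, the other 2 are Tm7sf2 and Idi1). The green points lie above 0 on the y axis and have a median of -0.20 on the x axis, and Cyp7a1 lies at 2.72 on the y axis and -0.28 on the x axis.

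A direct test of the difference between the diet effects called 4 genes (0.0353%), all with a higher diet difference under KD: Tm7sf2, Cyp7a1, Idi1 and Gm21897. At an unadjusted p under 0.05 there were 765 genes. The edgeR quasi-likelihood test called 4 and DESeq2 62, and 8 were called without HFD/FGFR4 KD 1. Over 27 alternatives the adjusted p of Tm7sf2 ranged from 2.13e-10 to 0.604 and was under the threshold in 26, and that of Cyp7a1 from 4.52e-07 to 0.276 and in 25. Idi1 was called in 17 of 27 and Gm21897 in 20 of 26. None of the 4 was called with library totals and all libraries, while 5 genes were called with library totals when HFD/FGFR4 KD 1 was left out. Gm21897, a predicted gene with 93.8% of its words shared with other genes, stood at 1.56, 3.87, 2.74 and 1.91 CPM on chow and 5.06, 4.3, 5.58 and 3.81 CPM on HFD, and its level is uncertain.

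How far HFD/FGFR4 KD 1 had moved differed between gene groups. For the 641 genes at an adjusted p under 0.05 without that library, its position was set on a scale from the Chow/FGFR4 KD mean (0) to the mean of HFD/FGFR4 KD 2 to 4 (1). These genes were chosen for a difference in the other libraries, so the scale is a description of where this library lay. The median was 0.471, the quartiles 0.22 and 0.711. It was nearer to its own group in 292 genes (45.6%), beyond every chow library in 407 (63.5%) and within 0.2 of chow or past it in 152 (23.7%). HFD/FGFR4 KD 2, 3 and 4 were each placed over other genes, the 120, 153 and 86 at an adjusted p under 0.05 without that library. Their medians were 1.0, 0.878 and 1.07. On these scales the point 1 was a mean that included HFD/FGFR4 KD 1, so the medians cannot be set directly beside 0.471.

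**Figure D5:**
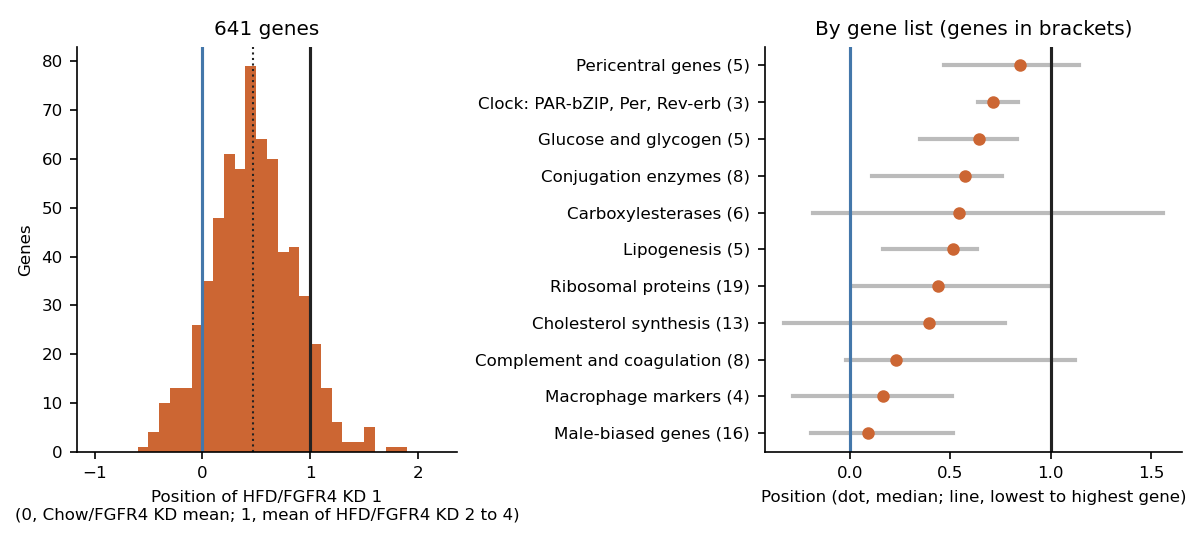
Left, number of genes (of 641) by the position of HFD/FGFR4 KD 1 between the Chow/FGFR4 KD mean (0, blue line) and the mean of HFD/FGFR4 KD 2 to 4 (1, black line), in bins of 0.1, with the median of 0.471 dotted; genes beyond the axis are counted in its end bins. Right, the median (dot) and full range (line) of that position for the members of 11 gene lists, from pericentral genes at 0.846 to male-biased genes at 0.0913.

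By list, its position was close to its group for urea cycle and amino acid genes (median 1.12 over 3 genes), pericentral genes (0.846, 5 genes), the first clock arm (0.715, 3 genes) and glucose metabolism (0.642, 5 genes). It lay midway for conjugating enzymes (0.573, 8 genes), carboxylesterases (0.542, 6 genes), ribosomal proteins (0.439, 19 genes) and cholesterol synthesis (0.395, 13 genes). Values near chow were those for complement and coagulation (0.231, 8 genes), macrophage markers (0.165, 4 genes), male-biased genes (0.0913, 16 genes) and heat shock genes (0.0143, 3 genes). The ranges within lists were wide, for cholesterol synthesis from -0.33 to 0.775. Cyp7a1 was at the level of its group in HFD/FGFR4 KD 1, while Hsd3b5 was above chow there.

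Some genes were called only without HFD/FGFR4 KD 1. Fth1, ferritin heavy chain, stood at 908, 942, 983 and 1011 CPM on chow and 879, 1199, 1178 and 1269 CPM on HFD. Below every chow library was HFD/FGFR4 KD 1. The other 3 HFD libraries were above all chow libraries (0.34, adjusted p = 0.039 without HFD/FGFR4 KD 1). Mknk2, an ERK-activated kinase, and Lrp4, a receptor for agrin, rose in that fit by 0.46 (adjusted p = 0.0395) and 0.54 (adjusted p = 0.0486).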

How the data were processed

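Liver RNA of 16 mice (4 groups of 4) was sequenced. The authors quantified transcripts with kallisto and summed them per gene with tximport, so the deposited values are estimated counts per gene, 7.85% to 11.1% of them not whole. The submitters' processing notes name fastp and the build GRCm38, and versions are not given in the sources used here. The table held 0 value columns that belong to no sample of the study.

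Genes under 1 CPM in more than 4 libraries were dropped, which left 11324 of 52143. TMM factors (edgeR 4.0.16) and limma-voom (limma 3.58.1, R 4.3.3) were fitted to all 16 libraries with group as the factor. The filter, TMM, voom and threshold follow the study's methods, which do not say which libraries entered 1 fit. Counts were rounded for DESeq2 1.42.0 and edgeR's quasi-likelihood test, which were alternatives together with other scalings, filters, library weights, a replicate block and left-out libraries. Scaling by library totals with HFD/FGFR4 KD 1 left out was added after the data were seen. The scripts were tested on simulated data. No libraries were duplicates (chi-square per degree of freedom of at least 7.59 for every pair within a group).

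The gene lists, and the genes and comparisons described, were chosen with earlier results of these data known, and support nothing by their choice. Named genes are Fgfr4, Gpc1, Cyp7a1 and preset anchor genes of the lists, up to 15 per direction with the smallest p among called genes whose groups did not overlap, up to 10 per direction called only without HFD/FGFR4 KD 1 or called between the diet effects, and up to 6 called members per list. Not all genes so named are printed. Promoters are from RefSeq (GRCm38.p6), and shared sequence was measured as the percent of a gene's 31-base transcript words found in other genes.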

Additional observations from a re-analysis of the deposited data

Results flagged for a closer look

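A value far from the other 3 of its group, by Dixon's criterion for 4 values, was found in 21 of 284 groups checked, where chance gives about 1 in 20, or 14.2. HFD/FGFR4 KD 1 lay at 0.302 on the saline diet axis, against 0.788 to 0.85 in the others of its group. It was high for Gstp1 (437 CPM), Cyp7b1 (336 CPM), Ugt2b1 (354 CPM), Mup17 (1590 CPM), Hsd3b5 (166 CPM) and Rpsa (249 CPM). It was low for Bdh1 (143 CPM), Cyp2c38 (35.3 CPM) and Slc17a4 (42.5 CPM). In all of these genes the value lay on the chow side of its group.

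Chow/FGFR4 KD 4 was high for Mt1 (627 CPM), Mt2 (544 CPM), Gstp2 (21.6 CPM) and Fga (7977 CPM) and low for Cdkn1a (29.8 CPM) and Mknk2 (92.1 CPM). Chow/FGFR4 KD 3 was high for Lect2 (57.8 CPM) and Akr1d1 (136 CPM). HFD/FGFR4 KD 2 was high for Mt1 (46.3 CPM), Mt2 (27.9 CPM) and Col1a1 (21.9 CPM).

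The diet difference under KD exceeded that in saline mice, by the interaction term of limma-voom, for Cyp7a1 (3.01 log2), Gm21897 (2.42), Idi1 (1.33) and Tm7sf2 (0.91).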

How the results depend on the processing

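For the diet comparison under KD, 2293 genes were called. The count ranged from 1189 (without HFD/FGFR4 KD 4) to 2535 (without HFD/FGFR4 KD 1) when 1 library was left out, and was 351 at an adjusted p under 0.05. For saline mice the count of 2939 was 5324 with no filter, 4306 with library totals (92.1% higher), 1042 at an adjusted p under 0.05 and 2414 to 3011 with 1 library left out. The 4 genes called between the diet effects became 62 with DESeq2, 7 with no filter, 7 with library quality weights, 10 without HFD/FGFR4 KD 1 and Chow/FGFR4 KD 4, 1 at an adjusted p under 0.05 and 1 (without HFD 1) to 27 (without HFD/FGFR4 KD 2) with 1 library left out. With library totals 0 were called by limma-voom, with 761 at an unadjusted p under 0.05, and 5 were called when HFD/FGFR4 KD 1 was also left out. The cause of these changes was not tested. The clock index difference stayed between 1.98 and 2.36 under all alternatives run.

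Same-numbered libraries did not deviate together (correlations of -0.205, -0.0269, -0.0196 and -0.123), so the numbers were not treated as pairs. With the number as a replicate block 2295 genes were called under KD, 2949 in saline mice and 2 between the diet effects, where Idi1 and Gm21897 lost their call. No other call of a named gene changed under the block.

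Sign changes were limited to 3 genes that were not called. Nr0b2 was 0.13 with library totals, 0.019 with upper-quartile scaling, 0.21 with library totals without HFD/FGFR4 KD 1, and -0.30 to 0.23 with 1 library left out. Scd1 was 0.015 with library totals, 0.59 with library totals without HFD/FGFR4 KD 1, 0.14 without that library and Chow/FGFR4 KD 4, and -0.46 to 0.37 with 1 library left out. Fasn was -0.12 to 0.47 with 1 library left out. How far depth or group size limited the calls was not tested.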
